A study of Mus musculus with 36 samples.

Results

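The genes for the subunits of glutamate and GABA receptors were examined for peaks of PAX6, a paired-box and homeobox transcription factor, in mouse enteric precursor cells (EPCs). Members were the protein-coding genes of GENCODE M1 on mm9 whose symbol starts with Gria, Grik, Grid, Grin or Grm, or with Gabra, Gabrb, Gabrg or Gabrr, followed by a digit. The rule found 42 of 22350 protein-coding genes on chromosomes 1 to 19 and X. It took in 26 glutamate receptor genes, 15 GABA receptor genes and Grid2ip, which encodes no receptor subunit. A peak was assigned to a gene when its center lay in the gene body or within 100 kb of it, and this stretch is called the window of the gene.

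EPCs were grown as neurosphere-like bodies (NLBs), which are free-floating aggregates of neural crest-derived cells, from ganglionic gut taken at postnatal day 7 from CD-1 mice. Chromatin was precipitated with an anti-PAX6 antibody (16 libraries, with 4 in pool 1, 6 in pool 2 and 6 in pool 3) or with mouse IgG as negative control (4 libraries, labeled pool 1), and 16 input libraries were made from chromatin set aside before precipitation. No genetic change or treatment set the groups apart. The authors merged the libraries of a pool before calling peaks, so there is 1 peak list per pool and 1 for IgG, the pools are the only replicates, and neither the spread between libraries nor the sequencing depth behind each list can be read from the files. Because IgG was made only with the label of pool 1, antibody and pool cannot be told apart in a comparison of IgG with pools 2 and 3. The lists held 491, 1032 and 724 PAX6 peaks in pools 1 to 3 and 1007 IgG peaks, and peak positions carry no expression values, so neither the identity of the cells nor the activity of a receptor gene can be read from them.

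Glutamate is the main excitatory transmitter and GABA the main inhibitory transmitter of the mature brain, and neurons of the enteric nervous system also carry receptors for both. AMPA receptors (Gria genes), kainate receptors (Grik genes) and NMDA receptors (Grin genes) are cation channels opened by glutamate, the delta receptors (Grid genes) resemble them in structure and act at synapses, and the metabotropic receptors (Grm genes) signal through G proteins. GABA-A receptors are chloride channels assembled from alpha, beta and gamma subunits (Gabra, Gabrb and Gabrg genes), and rho subunits (Gabrr genes), known for their role in the retina, form channels of their own. PAX6 itself is best known for its part in the development of the eye, the forebrain and the pancreas.

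The mm9 sequence under some of the peaks is shown 5′ to 3′ on the plus strand, with capitals marking uninterrupted runs of CA or TG of at least 20 bp. The first is the whole peak of pool 2 in an intron of Grin2a (chr16:9776564-9776799), which holds the longest CA or TG run of all the peaks in these windows.
Grin2a, pool 2: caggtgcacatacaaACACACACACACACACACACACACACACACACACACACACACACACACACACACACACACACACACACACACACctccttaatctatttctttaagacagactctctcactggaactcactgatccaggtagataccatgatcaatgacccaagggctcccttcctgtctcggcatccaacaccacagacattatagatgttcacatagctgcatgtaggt
A stretch of the peak of pool 2 between Gabra4 and Gabrb1 (chr5:72075155-72075205) is shown for its TAAT and ATTA, in capitals here together with the 3 bases between them. Homeodomain proteins are known to recognize such sites. Another part of the same peak, not shown, holds a tandem run of TGT of 45 bp.
Gabra4 and Gabrb1, pool 2: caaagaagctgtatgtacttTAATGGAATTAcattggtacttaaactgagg
For comparison, 150 bases of the IgG peak in Grin2b (chr6:136110201-136110350) and of the PAX6 peak of pool 3 beyond the end of Grm6 (chr11:50771001-50771150) are given, the latter being the peak with the fewest CA and TG steps.
Grin2b, IgG: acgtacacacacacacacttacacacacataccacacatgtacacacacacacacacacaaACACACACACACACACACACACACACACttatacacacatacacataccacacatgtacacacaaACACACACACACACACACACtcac
Grm6, pool 3: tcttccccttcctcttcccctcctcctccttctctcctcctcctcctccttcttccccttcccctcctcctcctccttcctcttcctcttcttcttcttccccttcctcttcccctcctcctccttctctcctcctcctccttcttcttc

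Across the 3 pools, 17 PAX6 peaks lay in the windows of the receptor genes, which is the number that the length of the windows gives. The 42 windows merge into 34 stretches that cover 19.2 Mb, or 0.752% of the sequenced bases of mm9. If every peak were placed at random on its own chromosome, 17.0 of the 2219 PAX6 peaks on chromosomes 1 to 19 and X would have their center there, and observed over expected was 1.00. Pool 1 had 0 of its 489 peaks in the windows (3.87 expected), pool 2 had 11 of 1018 (7.63 expected) and pool 3 had 6 of 712 (5.50 expected), while IgG had 8 of 1006 (7.22 expected).

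As shares of the list, these counts were 1.08% for pool 2 (Wilson 95% interval 0.604% to 1.92%), 0.843% for pool 3 (0.387% to 1.83%) and 0.795% for IgG (0.403% to 1.56%). The share expected from length lay inside each of these intervals. For pool 1 the interval ran from 0% to 0.779% and the expected share was 0.792%, so pool 1 was the list whose expected share lay outside its interval, by a small margin. The rule of 3, a one-sided limit for a count of 0 and so lower than the interval's end, gives 0.613% (3 of 489 peaks). Intervals and this limit cover counting error only. Observed over expected was 0 in pool 1, 1.44 in pool 2 and 1.09 in pool 3, with a mean of 0.844 ± 0.752 (SD, n = 3 pools), and was 1.11 for IgG, which lies between pools 2 and 3. The mean of the pools minus IgG was -0.264, smaller in size than the spread between pools (two-sided exact permutation test over the 4 lists, p = 0.75, where 0.25 is the smallest p that 4 lists allow). This mean takes in pools 2 and 3, so the difference and its p mix antibody with pool. Pool 1, which shares its label with IgG, stood at 0 against 1.11. With peaks of a score of 70 or more alone, pool 2 kept 8 peaks in the windows against 3.53 expected, a ratio of 2.27. Pool 1 had 0 against 0.806, pool 3 had 4 against 3.89, and IgG had 2 against 2.12. This cut keeps unlike shares of the lists, whose median scores were 62.05, 68.98 and 106 in pools 1 to 3 and 65.6 in IgG. With it the mean of the pools minus IgG turned to 0.156. Without pool 1 it was 0.159, and with the gene body alone it was -0.886.

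**Figure D1:**
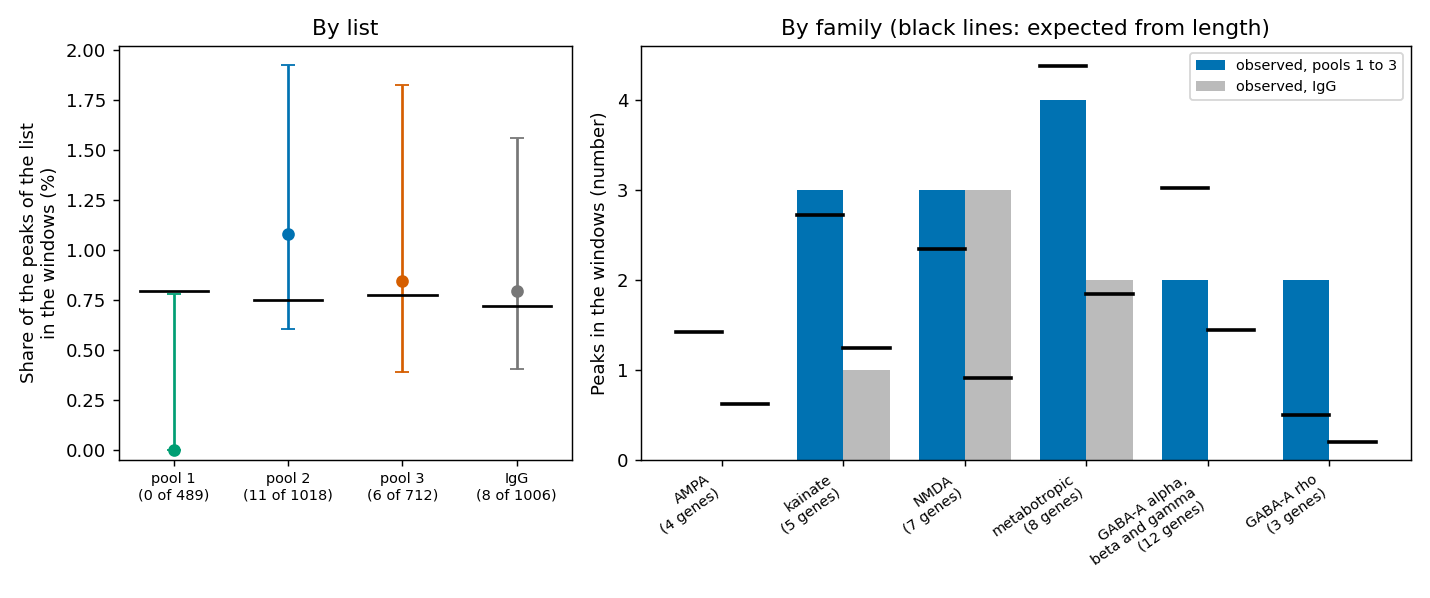
Left, the share of the peaks of each list with their center in the windows of the receptor genes (percent, vertical axis), with points for the 3 PAX6 pools and IgG, Wilson 95% intervals as bars and the share expected from length as black lines. Right, the number of peaks in 6 groups of receptor genes for the PAX6 pools together and for IgG, with the expected number as black lines; pool 1 sits at 0, below its line, and the 3 rho genes have 2 PAX6 peaks against 0.502 expected.

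Inside the windows, 12 PAX6 peaks lay in gene bodies, which make up 61.3% of the length of the windows, against 10.6 expected, and 5 lay in the flanks against 6.45 expected. All 8 IgG peaks lay in gene bodies against 4.38 expected, and 0 lay in the flanks against 2.84. Observed over expected in gene bodies was 1.83 for IgG and 1.14 for the pools together. Within bodies pool 2 had 9 peaks against 4.61 expected, pool 3 had 3 against 3.46, and pool 1 had 0 against 2.49.

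Counted by gene, 16 of the 42 members (38.1%) had a PAX6 peak of any pool in their window, against 17.5% of all protein-coding genes. The receptor genes are much longer than other genes, with a median length of 198 kb against 15.4 kb and 39 of 42 above the median of all genes, and the length of their own windows gave 13.4 members with a peak. By pool, 0 members had a peak in pool 1 (4.25% of all genes, 3.71 members expected from length), 11 members or 26.2% had one in pool 2 (8.08% of all genes, 7.10 expected) and 6 members or 14.3% in pool 3 (6.84% of all genes, 5.12 expected). IgG gave 8 members or 19.05%, against 8.63% of all genes and 6.71 expected. Peaks from at least 2 pools were found for 1 member (2.38%), against 1.56% of all genes and 2.34 members expected. The shares above those of all genes came with longer windows, in the IgG list as well as in pools 2 and 3.

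The members with a PAX6 peak had a median length of 317 kb (n = 16) and those without had 126 kb (n = 26). Among the 14 longest members, 8 had a PAX6 peak against 7.35 expected and 7 had an IgG peak against 3.79. Among the middle 14, 3 had a PAX6 peak against 3.47 expected and 1 had an IgG peak against 1.73. Among the 14 shortest, 5 had a PAX6 peak against 2.56 expected, namely Gabra4, Gabrr1, Gabrr3, Grik5 and Grm6, and 0 had an IgG peak against 1.20.

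**Figure D2:**
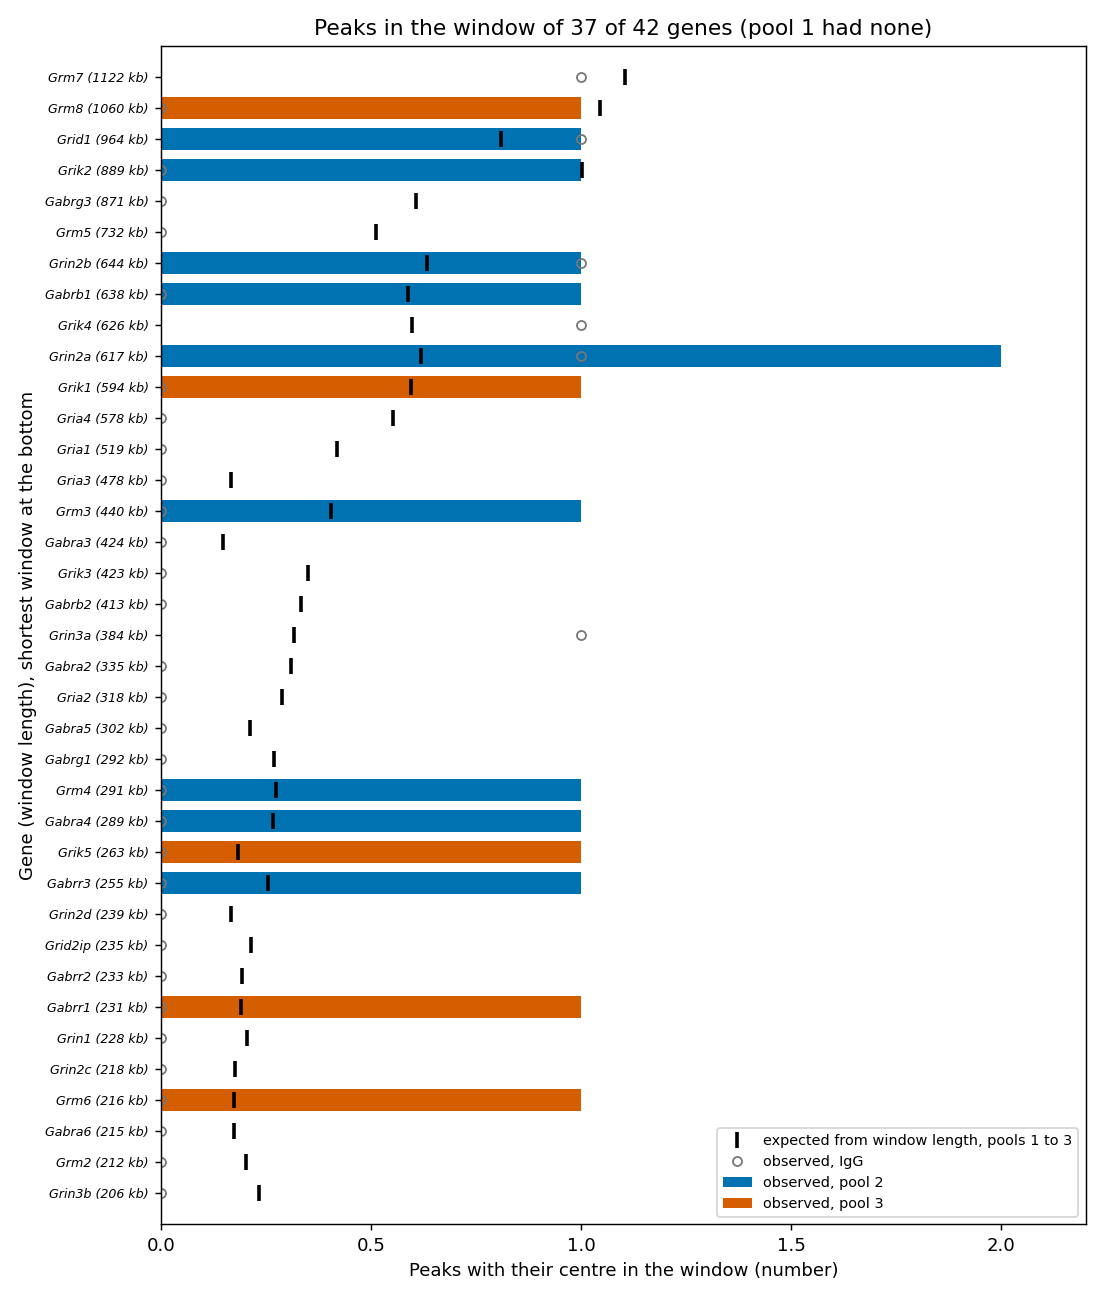
Number of peaks (horizontal axis) in the window of 37 of the 42 genes, ordered by window length, with bars for pools 2 and 3, open circles for IgG and black ticks for the number expected from length over the 3 pools. Grin2a reaches 2 PAX6 peaks, and pool 1 has none.

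NMDA receptors had 3 PAX6 peaks in the windows of 7 genes against 2.35 expected, all of pool 2, and 3 IgG peaks against 0.906. The peak of Grin2b, which encodes the GluN2B subunit that prevails early in development, had a score of 99.7 (the score being minus 10 times the log10 of the p-value from MACS), rank 117 of 1032 in pool 2. This score was shared by 35 peaks of pool 2. The peak spans 267 bp, and its center lay 0.552 kb upstream of the annotated start of the gene. The IgG peak in the same gene (score 65.9, rank 494 of 1007) lay in an intron 13.7 kb away from it. Both held CA or TG runs, with a longest run of 44 bp in the PAX6 peak and 28 bp in the IgG peak. Grin2a, which encodes the GluN2A subunit of mature synapses, had peaks in introns at 22.9 kb and 218 kb from its start. The farther one had a score of 116 (rank 78), and the nearer one had 84.1. An IgG peak of Grin2a (score 68.5) lay at 341 kb. Grin3a, for a subunit that lowers the calcium entry of the channel, had only an IgG peak. Grin1, for the subunit that every NMDA receptor contains, had no peak in any list, and neither did Grin2c, Grin2d or Grin3b.

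AMPA receptors, which carry most of the fast excitation in the brain, had 0 peaks in the windows of Gria1, Gria2, Gria3 and Gria4 in all 4 lists. The number expected was 1.42 for PAX6 and 0.625 for IgG, and at numbers this low a count of 0 says little about any of these genes.

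Kainate receptors had 3 PAX6 peaks against 2.72 expected, in the windows of Grik1, Grik2 and Grik5. The peak of Grik2 (pool 2) had a score of 58.4 and lay in an intron at 328 kb from the start, and that of Grik1 (pool 3) had a score of 102 and lay in an intron at 98.7% of the length of the gene, near its end. The peak assigned to Grik5, for a subunit that works only together with others, scored 109 in pool 3 and lay 50.8 kb upstream of it, inside Pou2f2 and 2.31 kb from a start of that gene, a transcription factor of B cells. Grik4 had only an IgG peak (score 80.1), and Grik3 had none.

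Grid1, a delta receptor gene, had a peak of pool 2 (score 84.1) in an intron at 375 kb and an IgG peak (66.2) at 104 kb. Grid2ip had none.

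Metabotropic glutamate receptors had 4 PAX6 peaks in the windows of 8 genes against 4.38 expected, and 2 IgG peaks against 1.84. Pool 2 had intronic peaks in Grm3 (score 63.4) and Grm4 (74.2), both genes for receptors that inhibit adenylyl cyclase. Pool 3 had an intronic peak in Grm8 (55.9) and a peak 91.4 kb beyond the end of Grm6 (51.4, rank 712 of 724), the receptor of retinal bipolar cells. The latter lay 3.82 kb from the start of another coding gene. Grm7 had only an IgG peak (61.1), and Grm2 and Grm5 had no peak in any list.

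**Figure D3:**
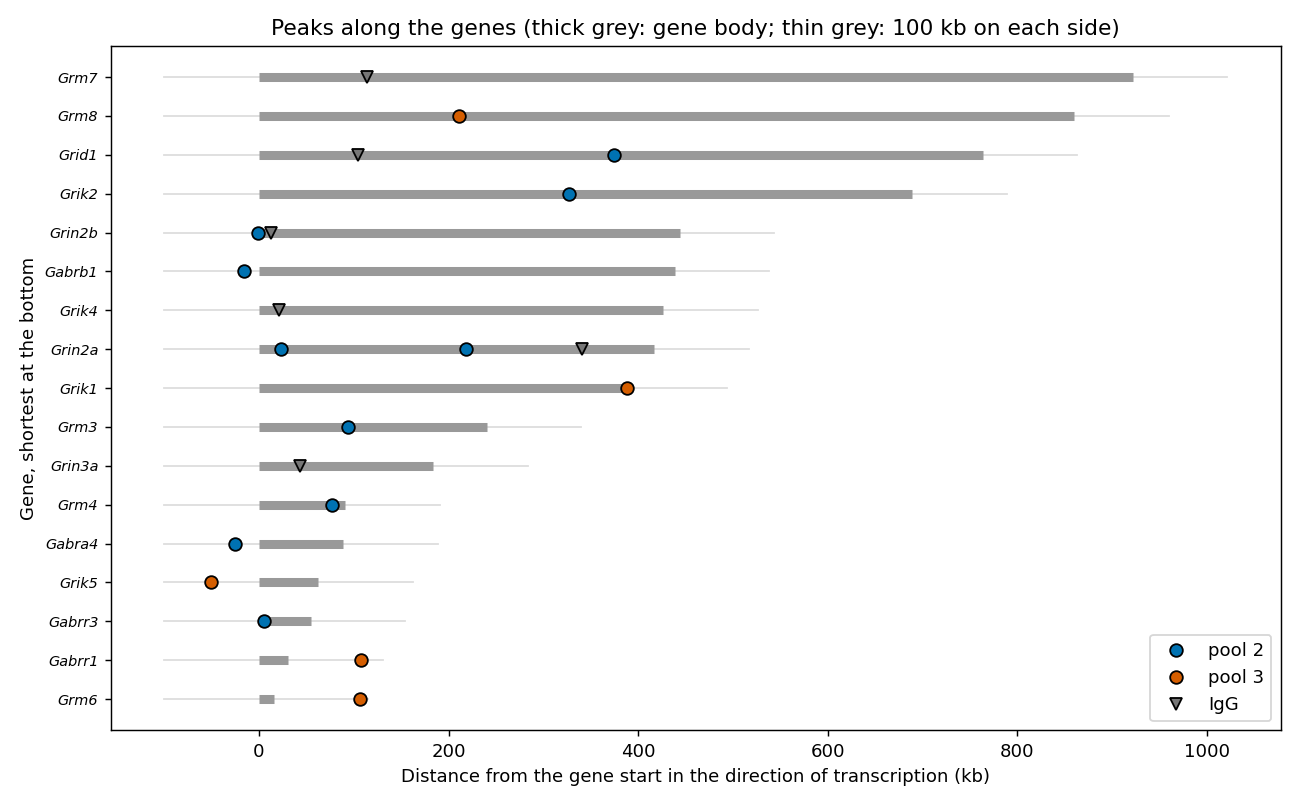
Distance of each peak center from the start of the gene (kb, horizontal axis, in the direction of transcription) for 17 genes with a peak in any list, with the gene body in thick grey, the 100 kb on each side in thin grey, circles for pools 2 and 3 and triangles for IgG. The peak of Grin2b of pool 2 sits at the start, and the IgG triangles lie in gene bodies.

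GABA-A receptors had 4 PAX6 peaks against 3.52 expected and 0 IgG peaks against 1.64. In glutamate receptor genes the corresponding numbers were 13 against 13.3 for PAX6 and 8 against 5.46 for IgG. Most alpha, beta and gamma genes stand in clusters, and together these 3 families had 2 PAX6 peaks against 3.02 expected. The cluster on chromosome 5 (Gabrg1, Gabra2, Gabra4 and Gabrb1) had 1 PAX6 peak against 1.21 expected, a peak of pool 2 with a score of 84.1 that lay between Gabra4 and Gabrb1, 25.5 kb upstream of the former and 16.1 kb upstream of the latter. It was counted for both genes, so the 4 peaks gave 5 GABA-A receptor genes with a peak, whereas the 13 peaks of the glutamate receptors gave 11 genes because 2 of these genes had 2 each. Gabra2, Gabra5, Gabra6, Gabrb2, Gabrg1 and Gabrg3 had no peak in any list, and neither did Gabra3 on chromosome X.

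The 3 rho genes had 2 PAX6 peaks against 0.502 expected, at counts too low for a comparison. In Gabrr3 the peak of pool 2 had a score of 83.6 (rank 296 of 1032) and lay in an intron 5.59 kb after the start of the gene. The window had no IgG peak, but only 0.0938 were expected, so this absence says little. The peak of pool 3 assigned to Gabrr1 (score 78.4, rank 481 of 724) lay 76.6 kb beyond the end of that gene and 7.36 kb from the start of Pnrc1, a nuclear receptor coactivator gene. Gabrr2, the neighbor of Gabrr1, had none.

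Scores were compared with those of the same list, since they depend on depth. In pool 2 the 11 peaks of the receptor genes scored 58.4 to 167 with a median of 84.1, and 8 of 11 stood above the median of the list (68.98). In pool 3 the 6 peaks scored 51.4 to 139 with a median of 90.0, and 2 of 6 stood above the median of the list (106). In IgG the 8 peaks scored 51.2 to 82.1 with a median of 66.1, and 5 of 8 stood above the median (65.6). The farther peak of Grin2a, at rank 78 of 1032, stood in the top 10% of its list. Scores in these lists come in steps, and the value of 84.05 that 3 peaks of the members carried was shared by 82 peaks of pool 2.

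**Figure D4:**
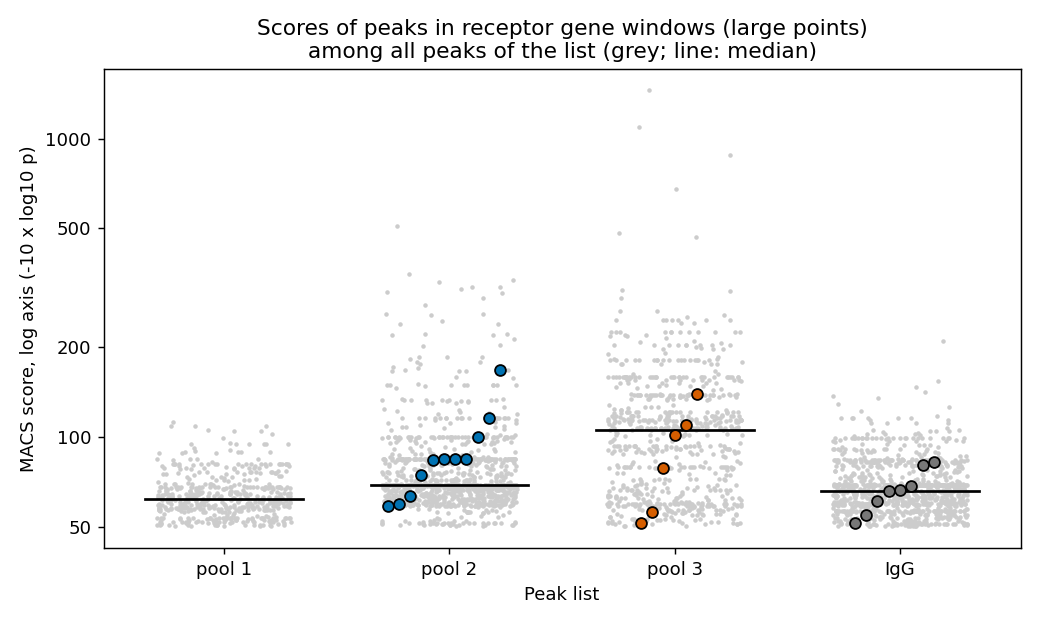
MACS score of every peak (grey, vertical log axis) by list, with the list median as a line and the peaks in receptor gene windows as large points. Pool 1 has no large points, those of pool 2 run from 58.4 to 167, those of pool 3 from 51.4 to 139 and those of IgG from 51.2 to 82.1.

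None of the 17 PAX6 and 8 IgG peaks in the windows overlapped a peak of another list by 1 bp or more. Overlaps were rare among all peaks as well. Of the 2219 PAX6 peaks, 57 overlapped a peak of another pool and 82 an IgG peak, and 78 of the 1006 IgG peaks overlapped a PAX6 peak. At rates this low, a count of 0 among so few peaks says little about the receptor genes. The distance to the nearest peak of another list ran from 13.7 kb, between the PAX6 and the IgG peak of Grin2b, to 1496 kb for Grik2. Of the 17 PAX6 peaks, 13 lay in introns of a coding gene (12 in a member and 1 in Pou2f2) and 0 in coding-gene exons, and 34.7% of all PAX6 peaks lay in introns. Gene bodies make up 61.3% of the length of the windows and held 12 PAX6 peaks against 10.6 expected. The share in introns that the windows alone would give was not computed. Within 10 kb of the start of any coding gene lay 5 of 17 (29.4%, Wilson 95% interval 13.3% to 53.1%), against 18.5% of all PAX6 peaks. Of these 5, those of Grin2b and Gabrr3 were near a start of the member, and those assigned to Grik5, Grm6 and Gabrr1 were near the start of another gene.

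An uninterrupted CA or TG run of at least 20 bp was found in 9 of the 17 PAX6 peaks (52.9%, Wilson 95% interval 31.0% to 73.8%), beside 55.2% of all PAX6 peaks. IgG peaks held such a run in 5 of 8 cases within the windows (62.5%, 30.6% to 86.3%) and in 62.6% of the whole list. Of 430 bp tiles, the median width of a PAX6 peak, 4.20% held such a run in the genome and 4.39% in the windows. Peaks of the receptor genes therefore held these runs as often as other peaks within counting error, with or without the PAX6 antibody, and far more often than the windows themselves. The windows held 2157 of the 272807 runs of the genome (0.791%), close to their 0.752% of the bases. Long runs were 74 bp in Grin2a, 53 bp in the peak assigned to Grik5 and 50 bp in Grm3. CA, AC, TG and GT steps made up 39.7% of the dinucleotide steps of the median PAX6 peak in the windows, 41.2% in all PAX6 peaks and 25.6% in the genome, and 15 of 17 were above the genome. The exceptions were a peak of pool 3 at 24.4% and the peak assigned to Grm6 (0.633%), which consists of CT-rich repeats.

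**Figure D5:**
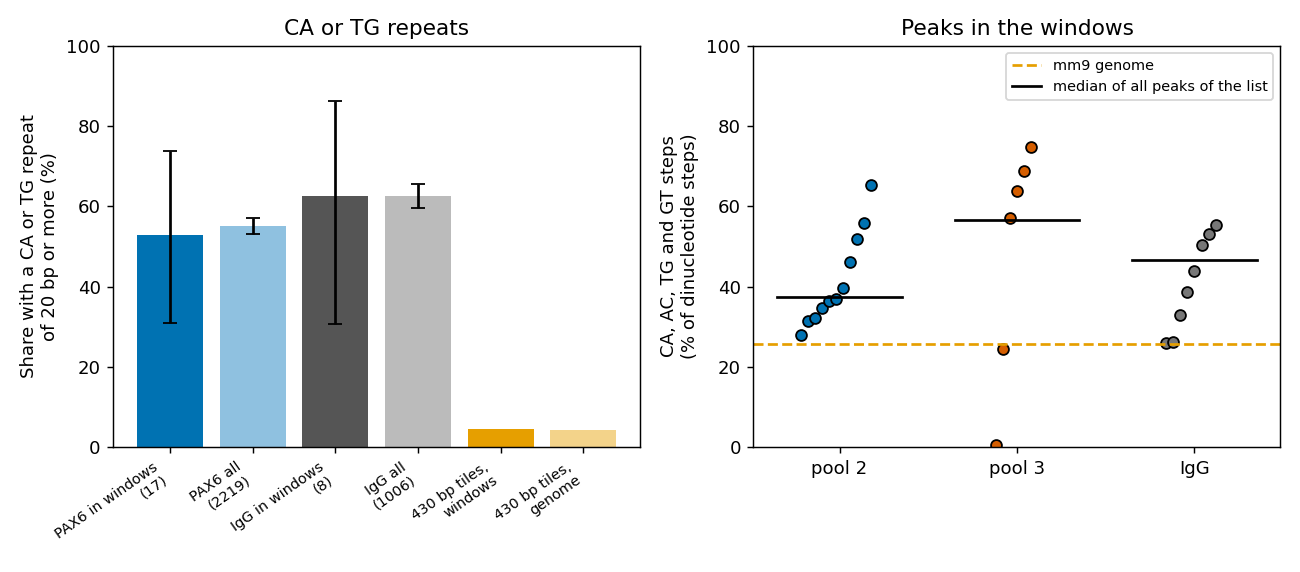
Left, share of peaks with a CA or TG run of at least 20 bp (percent, with Wilson 95% intervals) for PAX6 and IgG peaks in the windows and in all, beside the share of 430 bp tiles. Right, percent of CA, AC, TG and GT steps in each peak of the windows, with the median of each list as a line and the mm9 genome as a dashed line; all but 2 PAX6 peaks lie above the genome.

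TAAT followed by ATTA after 2 or 3 bases, a pattern that reads the same on both strands, was searched as a simple form of paired homeodomain sites. The pattern was found in 1 of the 17 PAX6 peaks (5.88%, Wilson 95% interval 1.05% to 27.0%), the peak between Gabra4 and Gabrb1 shown above. It was found in 1.62% of all PAX6 peaks (3.89% in pool 1, 1.47% in pool 2 and 0.281% in pool 3), in 1.39% of IgG peaks, in 3.19% of the tiles of the genome and in 3.80% of the tiles of the windows. A match or its absence describes these letters only.

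Genes that work together with the receptors were counted by the same rule. Among all protein-coding genes, 17.5% had a PAX6 peak of any pool and 8.63% an IgG peak. Of 6 other GABA receptor subunit genes (delta, epsilon, pi, theta and the GABA-B subunits), 1 had a PAX6 peak, Gabrp, against 1.02 expected. Of 38 genes for proteins that hold, traffic or modify the receptors at synapses, 12 had a PAX6 peak against 9.50 expected, and 5 had an IgG peak against 4.98. Dlgap1, which encodes a scaffold protein of the postsynaptic density, was the 1 gene of these 38 with peaks from more than 1 pool, beside 1.56% of all genes. It is 852 kb long (median of the list 63.0 kb), and no number expected from length was computed for this count. Its peak of pool 1 (score 64.5) lay in an intron 807 kb from the start, and those of pool 2 (84.1) and pool 3 (114) lay upstream, at -31.99 kb and -39.98 kb from it, without overlap. Of 20 genes for the synthesis, breakdown and transport of glutamate and GABA, 6 had a PAX6 peak against 4.09 expected and 0 had an IgG peak against 1.83. Those 6 were Abat, Gad2, Gls2, Slc1a1, Slc1a6 and Slc32a1, each with a peak of a single pool.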

How the data were processed

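Reads of the merged libraries of each PAX6 pool and of IgG were aligned to mm9 with Bowtie and peaks were called with MACS by the authors (neither versions nor threshold are given in the sources used here). Deposited scores are minus 10 times the log10 of the p-value as the authors' caller gave it, and no score was under 50. Input libraries were not analysed here on their own, and no read counts were used.

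Positions were read on mm9 with GENCODE M1, and peaks outside chromosomes 1 to 19 and X (28 PAX6 peaks, 1 IgG peak) were left out. A peak belonged to a gene when its center lay in the gene body or within 100 kb. The expected number is the exact mean of placing each peak at random on its own chromosome, assembly gaps left out: the share of length in the windows, summed over peaks. It carries no p-value. Shares have Wilson 95% intervals. The only test was an exact permutation test over the 4 lists. The placement script was tested on simulated data.

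Members and gene lists were chosen with earlier results of these data known. Every member was counted, and full values went to members with peaks from at least 2 pools, in the top 10% of a list, within 10 kb of a start of the gene, or with at least 3 PAX6 peaks (none); for the gene lists, to genes with peaks from at least 2 pools. The dinucleotide shares and the 430 bp tiles were chosen after the sequences were seen, as was the naming of neighboring genes, of the other members' peaks and of the transmitter genes with a peak. Results for some genes, and some sequences, are not reported here. Alternatives covered the distance limit (gene body, 10 and 50 kb), a score of 70 or more, overlap of 1 bp in place of the center, IgG-overlapping peaks, Grid2ip, each pool left out, assembly gaps, and placement of repeat-bearing peaks at repeats. Python 3.11.15, numpy 2.4.6, scipy 1.17.1 and matplotlib 3.10.9 were used.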

Additional observations from a re-analysis of the deposited data

How the results depend on the processing

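Observed over expected of the PAX6 peaks in the windows (1.00) ran from 0.640 without pool 2 to 1.46 with scores of 70 or more. Every alternative differed from it by less than the spread between pools (0.752). That is a wide limit, with pool 1 at 0, so staying within it says little about stability. The difference between the mean of the pools and IgG (-0.264) turned to 0.156 with scores of 70 or more, and with a pool left out it ran from -0.562 to 0.159, the last without pool 1. The other alternatives kept it below 0. It depended on the size of the window and was -0.886 with the gene body alone, -0.757 with 10 kb and -0.548 with 50 kb. Its permutation p has no bearing on stability, since so few lists cannot give a small p. The number of genes with a PAX6 peak (16) was 10 with the gene body alone and ran from 6 (without pool 2) to 16 (without pool 1) with a pool left out, the number of distinct peaks (17) ran from 6 to 17 (11 without pool 3), and the number of genes with peaks from at least 2 pools (1) ran from 0 to 1, being 0 without pool 2 or pool 3. The other alternatives moved these counts by less than 1.5 times. No paired analysis was possible because peaks were called on merged libraries and no list carries a replicate number. The depth behind each list is unknown, so a window without a peak cannot be told from one that was sequenced too thinly, and pool 1, which had the fewest peaks, limits what can be said of the spread between pools.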

Other observations

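When each peak was given instead to the coding gene with the nearest transcription start at any distance, 2 peaks of pool 1, 15 of pool 2, 3 of pool 3 and 8 of IgG fell to receptor genes. Both of those of pool 1 lay outside the windows. Grik2 had peaks from all 3 pools by this rule, yet those of pools 1 and 3 (scores 57.4 and 138) lay 1642 kb and 1135 kb outside the gene. Grm7, which had only an IgG peak in its window, had a peak of pool 2 (score 99.7) 149 kb beyond its end. For IgG the 8 genes were the same as by the windows.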
